A study of Mus musculus with 2 samples.

Results

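The miR-23, miR-27 and miR-24 family is encoded in the mouse genome by 2 paralogous clusters of 3 hairpins each, and all 6 of its genes were measured among 2202 miRNA genes in the hippocampus of young mice. The rule for the members uses names and not values, although earlier results of these data were known when it was set. They are the gene rows whose Ensembl identifiers belong in GENCODE M21 to Mir23b, Mir27b and Mir24-1 on chromosome 13, and to Mir23a, Mir27a and Mir24-2 on chromosome 8. The study holds 1 group: female B6CASTF1/J mice, the first-generation cross of C57BL/6J and CAST/EiJ, aged 25 days and with no treatment in the labels, from which a layer of the hippocampus that is not named was taken. It has 2 libraries of short RNA, biological replicates 1 and 2, and no control group. Nothing in the labels says whether they came from separate litters or days, so tests between them cover these 2 libraries and no condition.

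The hairpins of such a cluster are cut out of a common primary transcript by Drosha, trimmed by Dicer and loaded as short mature RNAs into Argonaute, where the seed (bases 2 to 8) selects target messages. The family is known from blood vessels, where it is abundant in endothelial cells, and its products have separate targets. miR-23 is known to repress glutaminase, miR-27 to repress the adipogenic factor Pparg, and miR-24 to repress genes of the cell cycle. Because the 3p products of both clusters carry the same seeds, a gene count is the means of asking which locus they came from.

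The 3p products are shown first, since the bases in which they differ decide which locus a read can be given to. Capitals mark the seed, sequences are from RefSeq (GRCm38.p6), and all 6 hairpins matched and were identical to those of GENCODE M21. miR-23b-3p is represented by the Mir23b hairpin further on.
mmu-miR-23a-3p: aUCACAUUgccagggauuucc
mmu-miR-27b-3p: uUCACAGUggcuaaguucugc
mmu-miR-27a-3p: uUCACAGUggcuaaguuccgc
mmu-miR-24-3p: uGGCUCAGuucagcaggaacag
The miR-27 products share their seed and differ by 1 substitution, C19U, counted from the 5′ end of miR-27a-3p, with the base of miR-27a-3p first. Along the same 21 bases the Mir23b hairpin differs from miR-23a-3p by U19A alone. A read of either family that stops before base 19 is therefore the same at both loci, and one that reaches base 19 is not. miR-24-3p is 1 sequence encoded at both loci, so no full-length read of it can be given to a cluster.

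The hairpins show how far this sharing reaches. Capitals mark the longest run that a hairpin has in common with its paralogue, which is 20 bases for the miR-23 pair and 28 bases for the miR-24 pair.
Mir23b: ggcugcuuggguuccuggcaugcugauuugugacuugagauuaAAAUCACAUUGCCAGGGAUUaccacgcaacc
Mir23a: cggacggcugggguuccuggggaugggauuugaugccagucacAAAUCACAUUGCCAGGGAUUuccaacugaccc
Mir24-1: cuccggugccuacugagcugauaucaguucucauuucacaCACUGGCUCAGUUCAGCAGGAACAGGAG
Mir24-2: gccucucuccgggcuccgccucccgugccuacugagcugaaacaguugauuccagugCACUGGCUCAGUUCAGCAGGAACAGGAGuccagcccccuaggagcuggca
In the miR-24 pair the shared run covers the whole of miR-24-3p and bases on either side of it, so reads lengthened or shortened by a few bases there stay shared. What separates these 2 loci is the other arm.
mmu-miR-24-1-5p: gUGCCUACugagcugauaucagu
mmu-miR-24-2-5p: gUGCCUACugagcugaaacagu
These 5p products share their first 16 bases and part at base 17. The counts of Mir24-1 and Mir24-2 can thus hold exact reads of the 5p arm and other unshared bases, and are no measure of miR-24-3p. Reads that matched several places, which enter no gene count, made up 46.4% of all reads in replicate 2 and 41.9% in replicate 1, and how many of them were miR-24-3p was not analysed here.

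Of 22-base windows in the hairpins, 7 of 47 in Mir24-1 and 9 of 86 in Mir24-2 also occur at another annotated miRNA locus, and none do in the other 4 members. Across the table, 69 of 1032 genes with such a stretch were detected (6.69%), meaning at least 2 CPM in each library, against 364 of 1170 genes without one (31.1%). CPM are counts per 1000000 counts in the gene rows. All 6 members were detected.

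In mm10 the chromosome 13 cluster lies on the plus strand within 2010111I01Rik, which RefSeq calls Aopep, a protein-coding gene for an aminopeptidase. Mir23b (ENSMUSG00000065599.2, chr13:63300484-63300557) lies in an intron of it. Mir27b (ENSMUSG00000065475.2, chr13:63300712-63300784) and Mir24-1 (ENSMUSG00000105904.1, chr13:63301208-63301275) overlap exons annotated for it. Which types of its transcripts hold those exons was not analysed here. Introns of Fancc run over the cluster on the opposite strand. The chromosome 8 cluster, also on the plus strand, overlaps no annotated protein-coding gene. It holds Mir23a (ENSMUSG00000065611.1, chr8:84208518-84208592), Mir27a (ENSMUSG00000065444.1, chr8:84208672-84208758) and Mir24-2 (ENSMUSG00000065541.1, chr8:84208815-84208921), whose last bases overlap the start of the lincRNA Gm26532. Each miR-24 hairpin has a miRNA gene on its opposite strand, Mir3074-1 on chromosome 13 and Mir3074-2 on chromosome 8.

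The libraries held 4266963 counts at miRNA genes in replicate 2 and 5481053 in replicate 1. A count of 0 would allow up to 0.703 CPM and 0.547 CPM, and intervals below are exact 95% Clopper-Pearson intervals that cover counting error only, because PCR copies are not independent molecules. Mature products of the members are 21 to 23 bases long, so counts were not divided by length. The list of 11 neuron-enriched miRNA genes had 9 detected and summed to 82866 CPM in replicate 2 and 59713 CPM in replicate 1. That list was chosen with earlier results of these data known, so its sum is a description and no check of the labelled tissue. It holds Mir128-1 and Mir128-2, whose common product miR-128-3p enters no gene count as exact full-length reads. The sum is therefore no level of the mature neuronal miRNAs.

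The chromosome 13 cluster supplied most of the family's counts in both libraries. Its 3 genes summed to 42447 counts in replicate 2, 0.995% of all miRNA counts (interval 0.985 to 1.004), and to 129884 counts in replicate 1, 2.37% (2.36 to 2.38). The 3 genes on chromosome 8 summed to 19111 counts in replicate 2, 0.448% (0.442 to 0.454), and to 36252 in replicate 1, 0.661% (0.655 to 0.668). As means over the libraries the clusters stood at 16822 ± 9722 CPM for chromosome 13 and 5546 ± 1510 CPM for chromosome 8 (SD, n = 2). Thus 69.0% of the family's counts came from chromosome 13 in replicate 2 and 78.2% in replicate 1. Reads that are the same at both loci enter no gene count, so these percentages split only the reads that could be given to a cluster.

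Within a library the ratio of the clusters does not depend on scaling. Chromosome 13 was 2.22-fold above chromosome 8 in replicate 2 (interval 2.18 to 2.26) and 3.58-fold in replicate 1 (3.54 to 3.62), a mean log2 ratio of 1.496 ± 0.488 (SD, n = 2). The direction was the same in 2 of 2 libraries. With 2 libraries a two-sided exact permutation test cannot go below p = 0.5, so the cluster difference is given as values with no p, and the intervals of the libraries did not overlap.

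**Figure D1:**
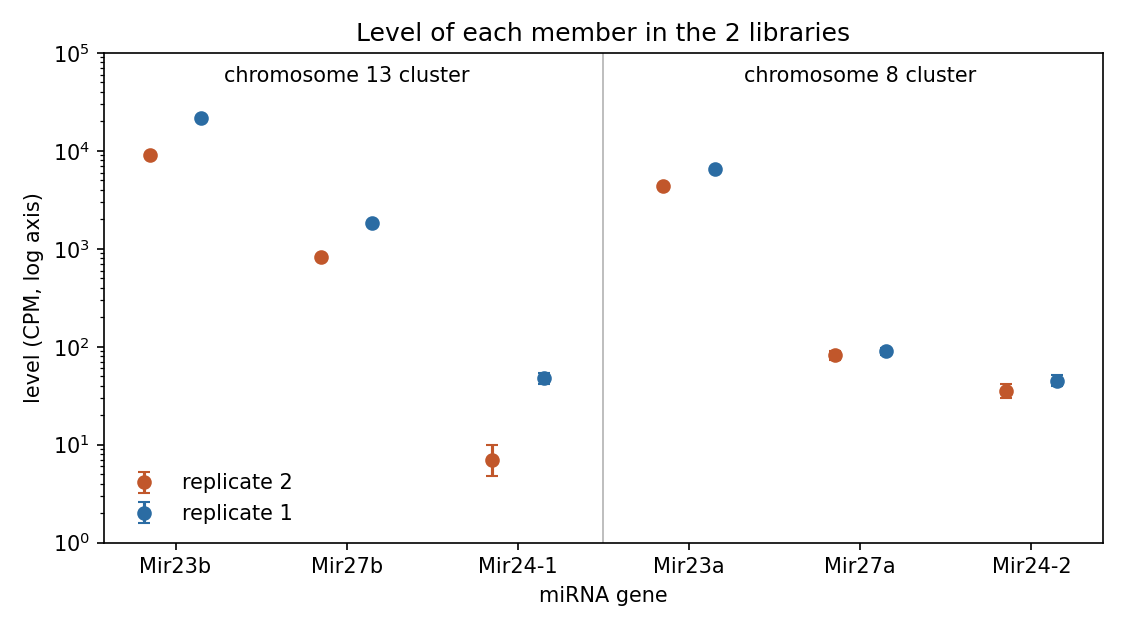
Level of each member in CPM on a log axis, with chromosome 13 genes on the left and chromosome 8 genes on the right. Points are single libraries (replicate 2 orange, replicate 1 blue) and bars are exact 95% counting intervals, hidden by the point where narrow. Mir23b lies at 9122 and 21824 CPM at the top, and Mir24-1 at 7.03 and 47.6 CPM has the widest gap between libraries.

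Among the miR-23 genes, Mir23b had 38922 counts or 9122 CPM in replicate 2 and 119621 counts or 21824 CPM in replicate 1. It averaged 15473 ± 8982 CPM (SD, n = 2), rank 26 of all miRNA genes in replicate 2 and rank 10 in replicate 1. Its paralogue Mir23a had 18610 counts or 4361 CPM in replicate 2 and 35513 counts or 6479 CPM in replicate 1, with a mean of 5420 ± 1498 CPM. The gene on chromosome 13 was the higher of the pair in both libraries, and the ranges of the 2 genes did not overlap.

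miR-27 genes were lower than their miR-23 neighbours and more unequal between the loci. Mir27b had 3495 counts or 819 CPM in replicate 2 and 10002 counts or 1825 CPM in replicate 1, a mean of 1322 ± 711 CPM. Mir27a had 351 counts or 82.3 CPM in replicate 2 and 492 counts or 89.8 CPM in replicate 1, a mean of 86.0 ± 5.31 CPM. The lower of the Mir27b values was above the higher of the Mir27a values, and the counting intervals of Mir27a in the libraries overlapped (73.9 to 91.3 CPM in replicate 2 and 82.0 to 98.1 CPM in replicate 1).

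The miR-24 genes held the fewest counts, which leave out exact full-length reads of miR-24-3p. Mir24-1 had 30 counts or 7.03 CPM in replicate 2 (interval 4.74 to 10.04) and 261 counts or 47.6 CPM in replicate 1 (42.0 to 53.8), a mean of 27.3 ± 28.7 CPM. Mir24-2 had 150 counts or 35.2 CPM in replicate 2 (29.8 to 41.3) and 247 counts or 45.1 CPM in replicate 1 (39.6 to 51.0), a mean of 40.1 ± 7.01 CPM. In replicate 2 the gene on chromosome 8 was the higher, and in replicate 1 the intervals of the pair overlapped. Ordered by mean CPM the members run Mir23b, Mir23a, Mir27b, Mir27a, Mir24-2 and Mir24-1, and each neighbouring pair was separated in both libraries except the last, whose ranges overlapped.

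The paralogue ratios put the miR-23 and miR-27 genes on the side of chromosome 13. Mir23b was 2.09-fold above Mir23a in replicate 2 (interval 2.06 to 2.13) and 3.37-fold in replicate 1 (3.33 to 3.41), a mean log2 ratio of 1.41 ± 0.49. Mir27b was 9.96-fold above Mir27a in replicate 2 (8.92 to 11.1) and 20.3-fold in replicate 1 (18.6 to 22.3), a mean log2 ratio of 3.83 ± 0.73. In each library the miR-27 ratio exceeded the miR-23 ratio and their intervals did not overlap. For Mir24-1 over Mir24-2 the ratio was 0.200 in replicate 2 (0.130 to 0.298) and 1.06 in replicate 1 (0.885 to 1.26), a mean log2 ratio of -1.12 ± 1.70, so it had no common direction. All 3 ratios were lower in replicate 2.

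**Figure D2:**
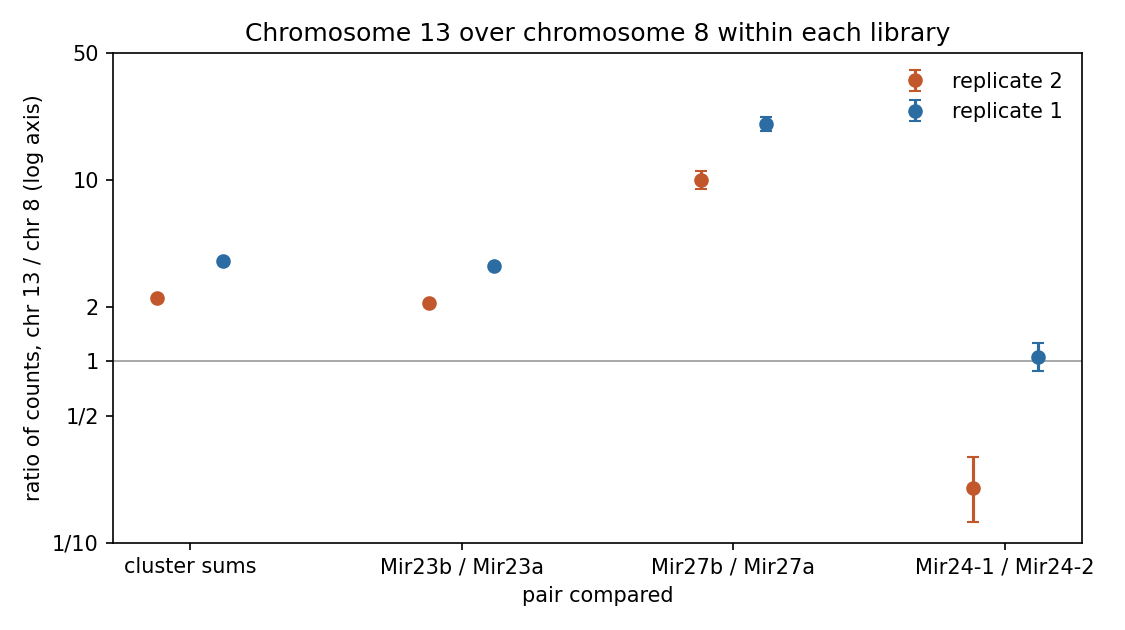
Ratio of counts of the chromosome 13 gene or cluster over its chromosome 8 counterpart, on a log axis, in replicate 2 (orange) and replicate 1 (blue) with exact 95% counting intervals. The grey line marks equality. Cluster sums, the miR-23 pair and the miR-27 pair lie above it in both libraries, up to 20.3 for the miR-27 pair in replicate 1, and the miR-24 pair lies at 0.200 and 1.06.

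Genes of a cluster share a primary transcript, yet their counts were far from equal. Mir23b made up 91.7% of its cluster in replicate 2 and 92.1% in replicate 1. Mir27b made up 8.23% (interval 7.97 to 8.499) and 7.70% (7.56 to 7.85), and Mir24-1 0.0707% and 0.201%. In the chromosome 8 cluster Mir23a made up 97.4% in replicate 2 and 98.0% in replicate 1, Mir27a 1.84% (1.65 to 2.04) and 1.36% (1.24 to 1.48), and Mir24-2 0.785% and 0.681%. In these gene counts the miR-23 gene thus led each cluster in each library, and miR-27 took a larger part on chromosome 13 than on chromosome 8. Exact full-length reads of the mature product that Mir24-1 and Mir24-2 have in common are left out of the counts. The shares of these genes are therefore no measure of that product.

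Mir23b stood 11.1-fold above Mir27b in replicate 2 (interval 10.8 to 11.5) and 12.0-fold in replicate 1 (11.7 to 12.2). On chromosome 8 Mir23a stood 53.0-fold above Mir27a in replicate 2 (47.7 to 59.1) and 72.2-fold in replicate 1 (66.0 to 79.1). The gap within the chromosome 13 pair therefore differed little between libraries, in which Mir23b itself differed 2.39-fold.

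Between the libraries, no member was higher in replicate 2. In a two-sided exact binomial test on each gene, with Benjamini-Hochberg adjustment over the 579 genes that had at least 10 counts, 5 of the 6 members fell in replicate 2, against a background of 26.9% of tested genes (68.9% were called in either direction and 42.0% were higher). The median log2 ratio of replicate 2 over replicate 1, with 1 added to each CPM, was -0.86 over the members and 0.24 over all tested genes. Neighbouring members share a transcript and are not independent.

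The exact binomial test takes reads as independent and holds no spread between libraries, so its p values here cover counting error only. Mir23b was 2.39-fold lower in replicate 2 (interval 2.37 to 2.42) and Mir27b 2.23-fold lower (2.14 to 2.32). Each had an adjusted p that the arithmetic rounds to 0 in that exact binomial test. Mir24-1 was 6.77-fold lower (4.63 to 10.2, adjusted p = 3.62e-35 in the same exact test), on 30 counts in replicate 2. On chromosome 8 the differences were smaller. Mir23a was 1.49-fold lower (1.46 to 1.51), Mir24-2 1.28-fold lower (1.04 to 1.58, adjusted p = 0.0266, exact binomial test), and Mir27a at a fold of 0.916 of replicate 2 over replicate 1 (0.797 to 1.05) did not pass (adjusted p = 0.277, exact binomial test).

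The chromosome 13 cluster as a whole was 2.38-fold lower in replicate 2 (interval 2.36 to 2.41) and the chromosome 8 cluster 1.48-fold lower (1.45 to 1.503). Of the members only the 3 chromosome 13 genes were called and at least 1.5-fold lower, against 21.4% of tested genes. With TMM Mir23a (1.91-fold) and Mir24-2 (1.64-fold) passed too, but the 21.4% is no background for TMM. At any fold, 206 of 579 tested genes were called lower with TMM, against 156 with totals of the gene rows. By the size of the log2 ratio in either direction, Mir24-1 exceeded 92.6% of the 433 detected genes, and the other 5 members exceeded from 9.24% (Mir27a) to 68.4% (Mir23b). Scaling by edgeR's TMM or by DESeq2 size factors made Mir27a pass as well (1.40-fold lower, adjusted p = 2.91e-06 and 2.90e-06, exact binomial tests). With all reads as the scale Mir27a passed too (1.24-fold lower, adjusted p = 0.0037, exact binomial test). Under the remaining alternatives its adjusted p in that exact test ranged from 0.176 to 0.325 and did not pass.

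**Figure D3:**
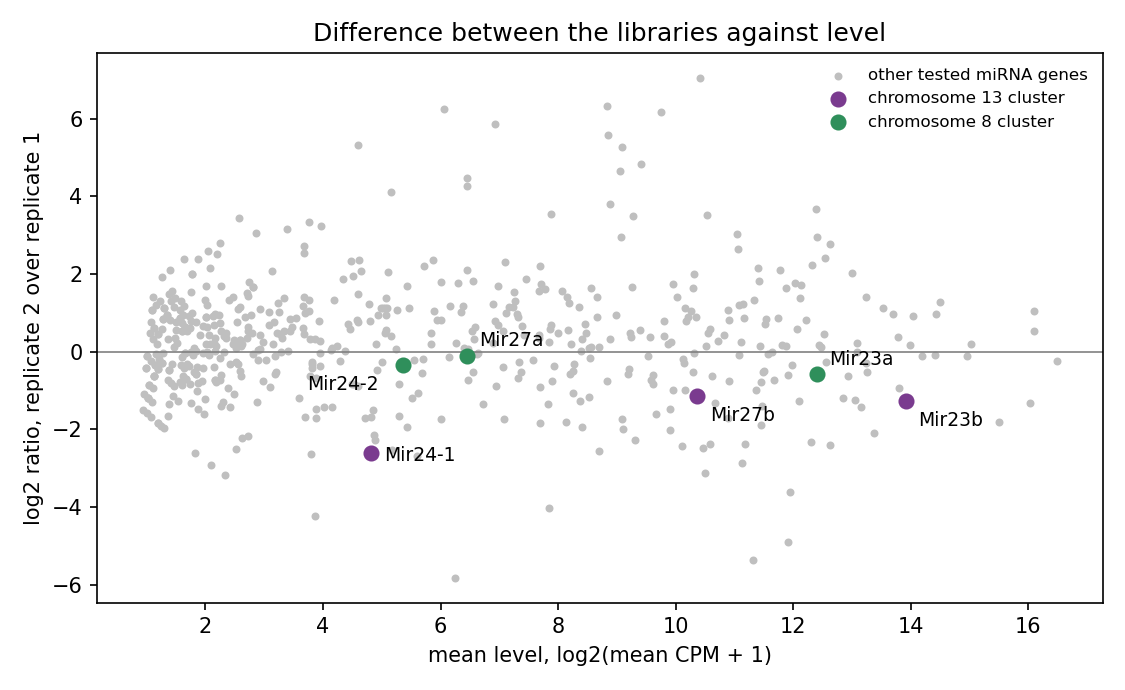
Log2 ratio of replicate 2 over replicate 1 (CPM with 1 added) against the mean level, log2(mean CPM + 1). Grey points are the other tested miRNA genes, purple points the chromosome 13 genes and green points the chromosome 8 genes. The 6 members lie between -2.60 for Mir24-1 and -0.12 for Mir27a, all below the zero line.

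Lists of miRNA genes of other cell types also differed between the libraries. Of all tested genes 26.9% were lower and 42.0% higher in replicate 2. All 3 detected genes of the endothelial and mural list of 5 fell in replicate 2, where the list summed to 12895 CPM, against 21958 CPM in replicate 1. Its endothelial gene Mir126a was at 9834 CPM in replicate 2 and 18708 CPM in replicate 1, which made most of the difference in the sum. Mir143 differed little, at 2947 CPM in replicate 2 and 3099 CPM in replicate 1. Mir145a was at 113 CPM and 151 CPM, and Mir126b and Mir145b were at 0 in both. The oligodendrocyte list (4 of its 5 names in the table, 3 detected, 2 lower and 1 higher) summed to 939 CPM in replicate 2 and 6503 CPM in replicate 1, and the epithelial list, with all 5 genes higher, to 5824 CPM and 72.4 CPM.

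The remaining lists were mixed. Of the neuron list 4 genes were lower and 5 higher in replicate 2, in counts that leave out exact full-length reads of miR-128-3p. The microglia and immune list had 2 lower and 3 higher and summed to 1101 CPM in replicate 2 and 1990 CPM in replicate 1, and the erythroid list had 2 lower and 1 higher and summed to 65.9 and 88.1 CPM. The part of any of these cell types in the lower level of the clusters was not tested, and in bulk tissue fewer cells of a type and less RNA per cell cannot be told apart.

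Neighbours on chromosome 8 and the pair Mir23b and Mir27b moved together more closely than most neighbouring miRNA genes. The log2 ratios of replicate 2 over replicate 1 of Mir23b and Mir27b differed by 0.10, and those of the 3 chromosome 8 pairs by 0.22 to 0.45. Over 387 other pairs of detected genes on 1 strand with starts within 10 kb, the median difference was 0.93 and the middle 50% lay between 0.41 and 1.87. Pairs with Mir24-1 differed by 1.34 and 1.44, above that median. The 387 pairs come from 146 genes and were not matched to the members by level, so counting error can be larger in them. Since these pairs share genes, they are a description with no test.

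In level most of these neighbours were further apart than the median of the other pairs, with Mir27a and Mir24-2 (1.10 on the log2 scale) the exception. Mean CPM of Mir23b and Mir27b differed by 3.55 on the log2 scale and that of Mir23a and Mir27a by 5.98, against a median of 2.78 for the other pairs. Pairs of a miR-23 with a miR-24 gene lay 9.15 apart on chromosome 13 and 7.08 apart on chromosome 8, with exact reads of miR-24-3p left out.

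**Figure D4:**
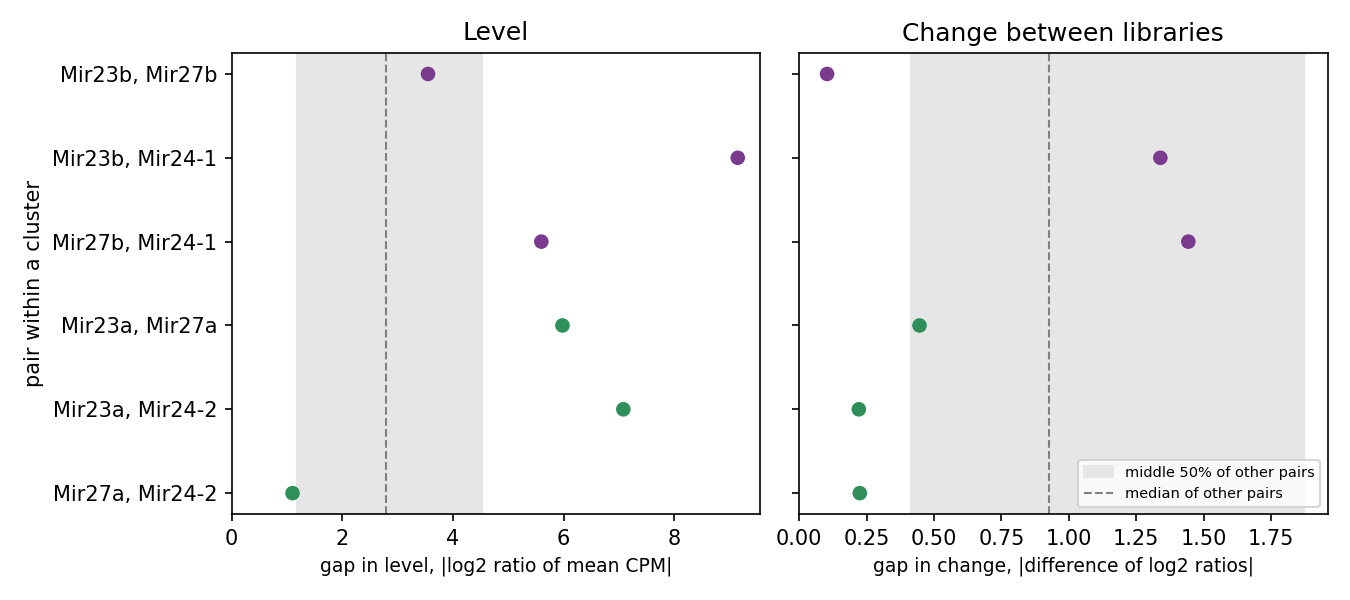
Gaps between neighbours within each cluster, in level (left, absolute log2 ratio of mean CPM) and in the change between libraries (right, absolute difference of their log2 ratios). Purple points are chromosome 13 pairs and green points chromosome 8 pairs, and the grey band and dashed line are the middle 50% and median of 387 other pairs. Mir23b and Mir27b lie 0.10 apart on the right, left of the band, and the Mir24-1 pairs at 1.34 and 1.44.

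The region of Mir24-1 differed between the libraries on each strand. In replicate 2 it had 30 reads on the strand of Mir24-1 and 150 on the opposite one, where Mir3074-1 is annotated, and in replicate 1 it had 261 and 46. The share on the strand of Mir24-1 was 16.7% in replicate 2 (interval 11.5 to 22.9) and 85.0% in replicate 1 (80.5 to 88.8). Mir3074-1 was at 35.2 CPM in replicate 2 and 8.39 CPM in replicate 1 and rose in replicate 2 (adjusted p = 4.34e-20, exact binomial test). At the paralogous locus all 150 reads in replicate 2 and all 247 in replicate 1 were on the strand of Mir24-2, and Mir3074-2 had none. miR-3074-5p is 1 sequence encoded at both loci, so its exact full-length reads enter neither gene count. The counts of Mir3074-1 and Mir3074-2 are therefore no measure of it, nor of the locus it came from. Counts without strand were 0 for all 4 of these genes in both libraries, so the miR-24 values rest on the counts by strand.

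The genes nearest to each member in log2(CPM + 1) over the 2 libraries came from other loci. Closest to Mir23b were Mir99b, at a Euclidean distance of 0.05, and Mir126a at 0.25. Mir23a had Mir411 at 0.05 and Mir541 at 0.32, Mir27b had Mir338 at 0.27 and Mir671 at 0.40, and Mir27a had Mir16-2 at 0.14 and Mir493 at 0.17. Nearest to Mir24-2 were Mir679 (0.30) and Mir92-2 (0.33), and to Mir24-1 Mir344b (0.34) and Mir7240 (0.43). No member was among them by construction, and 2 libraries give little power to tell patterns apart.

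In the RefSeq table no other mouse gene carries the 3p seed of the miR-23 or miR-27 products. The seed of miR-24-3p occurs in products of 4 other genes, Mir6413, Mir6410, Mir6369 and Mir5124b, each of which had 0 counts in both libraries. Bases 3 to 9 of miR-27a-3p and miR-27b-3p are the seed of the neuronal miR-128-3p (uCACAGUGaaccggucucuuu). Its gene Mir128-1 was at 21819 CPM in replicate 2 and 11606 CPM in replicate 1, and Mir128-2 at 6393 CPM and 2470 CPM. Since miR-128-3p occurs at both loci, these counts leave out its exact full-length reads and are no measure of it. The counts of both genes rose in replicate 2, where Mir27b fell.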

How the data were processed

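Each library came with a table of raw counts of reads per miRNA gene, made by the authors on mm10 with GENCODE M21 per the deposited text beside it. Aligner, trimming and counting options: not given in the sources used here. The second of 3 unnamed count columns, read as the strand of the gene, was used. The 4 rows that name no gene stayed out of totals: reads matching several places (46.4% in replicate 2, 41.9% in replicate 1), unmapped reads (17.2%, 17.1%), reads outside miRNA genes (5.17%, 5.56%) and, in the column without strand, reads in several genes.

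CPM, ratios, exact intervals and exact binomial tests (minimum 10 counts in sum, adjusted p threshold 0.05) were computed with Python 3.11.15 and scipy 1.17.1, and scalings with edgeR 4.0.16 and DESeq2 1.42.0. The test was checked on simulated libraries that held counting error only, so that check does not cover the spread between real libraries. As edgeR's common biological coefficient of variation over 579 genes, that spread was 0.737. The genes named are the members, genes opposite them, the 2 nearest genes per member, genes sharing a seed and marker lists. Mir128-1 and Mir128-2 were set beside miR-27 after their seed offset was seen. The members and lists were chosen with earlier results of these data known. Shared stretches were sought among annotated hairpins only. Reads of CAST/EiJ alleles that differ from mm10 can be placed less often, and alleles were not analysed.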

Additional observations from a re-analysis of the deposited data

Results flagged for a closer look

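Reads on the strand opposite to Mir24-1 lay above the 3 counts that a count of 0 allows, with 150 in replicate 2 and 46 in replicate 1, in a count column that the comparison of the clusters does not use. They equal the counts of Mir3074-1, annotated on that strand, and their source was not tested. No other member had a read on its opposite strand in either library.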

How the results depend on the processing

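The mean log2 ratio of chromosome 13 over chromosome 8 stayed positive under every alternative tried. It was 1.505 both without strand and with Mir23 and Mir27 genes only, and 1.41 as the median of the 3 paralogue ratios. Without strand the miR-24 genes are at 0, so both of the first settings use the same counts, and the median was the miR-23 ratio. The miR-23 genes made up at least 91.7% of each cluster, so these alternatives largely repeat 1 ratio. From 1 library at a time the cluster ratio ranged from 1.15 to 1.84. In the same way Mir23b over Mir23a ranged from 1.06 to 1.75 and Mir27b over Mir27a from 3.32 to 4.35, whereas Mir24-1 over Mir24-2 ranged from -2.32 to 0.08 and so changed sign. Members called between the libraries numbered 5 of 6, and 6 with TMM, DESeq2 size factors or all reads as the scale. Of all 579 tested genes 399 were called, and 390 with TMM, 384 with DESeq2 size factors and 383 with all reads. Members called numbered 3 with counts without strand, where the miR-24 genes are at 0 and 4 members were tested, and 3 with a fold of at least 1.5. Genes called numbered 370 of 554 without strand and 323 of 579 with that fold. Every member called was lower in replicate 2 in each of these settings. Among all tested genes 60.9% of calls were higher in replicate 2, against 47.2% with TMM and 46.6% with DESeq2 size factors, which move the median over detected genes by -0.36 on the log2 scale. Per 1000000 of all reads in the table, mean levels were 5288 for Mir23b, 451 for Mir27b, 1828 for Mir23a, 28.7 for Mir27a and 13.5 for Mir24-2. No paired analysis between groups was possible because there is 1 group, and the cluster ratios above are taken within each library. Leaving out a library leaves no test between them. Depth limits the miR-24 genes most, with 30 counts of Mir24-1 in replicate 2.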
